A study of Sus scrofa with 28 samples.

Results

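The genes described here are 8 members of the ubiquitin-proteasome pathway in the loin muscle of weaned piglets. They are the conjugating enzymes UBE2QL1 and UBE2D4, the ligases and ligase subunits CUL9, RNF19B, NEDD4, ASB11 and KLHL15, and the proteasome subunit PSMD11. Of the 2275 genes that could be named in the table these are 8, and they are measured by 10 of its 5226 probe sets. The members were chosen by the difference between genetic types, as all 8 stand in the study's own list of genes that differ between them on these arrays. Their differences between genetic types are therefore given as a description, without a test, while the tests are kept for what the choice did not use: the co-variation of the genes from piglet to piglet, the hybridization series and the rest of the pathway. UBE2D4 has 3 probe sets, the one in the study's list and 2 that only the annotation of the array names, and each other gene has 1.

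The arrays hold RNA of Longissimus dorsi, the loin, from 28 male piglets slaughtered at weaning at 28 days of age, 1 array a piglet. The 14 Iberian (IB) piglets are purebred, and the 14 Duroc × Iberian (DU×IB) piglets have Duroc sires, with Iberian dams in both groups. Piglets shared litters, which the labels do not name, and the DU×IB piglets came from far fewer litters than the IB piglets. Littermates count here as independent samples, so p-values measure only the spread between these piglets, and litter and genetic type cannot be told apart. Levels are deposited log2 values of the Affymetrix porcine array after GCRMA, where a difference of 1 is a doubling, and differences are DU×IB minus IB.

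Ubiquitin is attached to proteins by a relay of enzymes. An activating enzyme (E1) loads it onto a conjugating enzyme (E2), and a ligase (E3) picks the protein to be marked. RING ligases and the cullin complexes bring the E2 and the substrate together, while HECT and RING-between-RING ligases first take the ubiquitin themselves. Proteins with ubiquitin chains are bound and unfolded by the proteasome and cut into peptides. In skeletal muscle this pathway is known for the turnover of contractile proteins, and some of its ligases rise in wasting muscle.

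Hybridization took place in series of 16 and 12 arrays, which the labels do not identify. The mean signal of 10 bacterial spike-in probe sets parts the arrays into groups of exactly these sizes. One holds 8 IB and 8 DU×IB piglets with a spike-in mean of 8.93 to 9.68, and the other holds 6 of each with 6.19 to 7.01. Array medians ran from 6.01 to 6.71 in the series of 16 and from 6.87 to 7.05 in the series of 12. The number of arrays limits the precision of every value. Of 26 skeletal muscle markers, 4 are in the table, which holds only probe sets with variable signal. MYL3, RYR1, ATP2A1 and PYGM had mean levels of 12.95, 12.61, 12.29 and 9.00 in IB, against a median of 6.70 over the means of all probe sets.

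All 8 genes had a lower mean level in DU×IB than in IB, by 0.31 to 0.77 on the log2 scale, and each had a lower mean in DU×IB in both hybridization series. The median difference of the 8 genes was -0.59, against 0.02 over all 5226 probe sets. With limma and the series in the model, 4 of the 8 genes (CUL9, RNF19B, UBE2QL1 and UBE2D4) were past an adjusted p of 0.10 on the lower side, where 0.708% of all probe sets were, and nothing is read from this count since the members were chosen on this contrast. Without IB piglet 9 it was 3 genes.

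**Figure D1:**
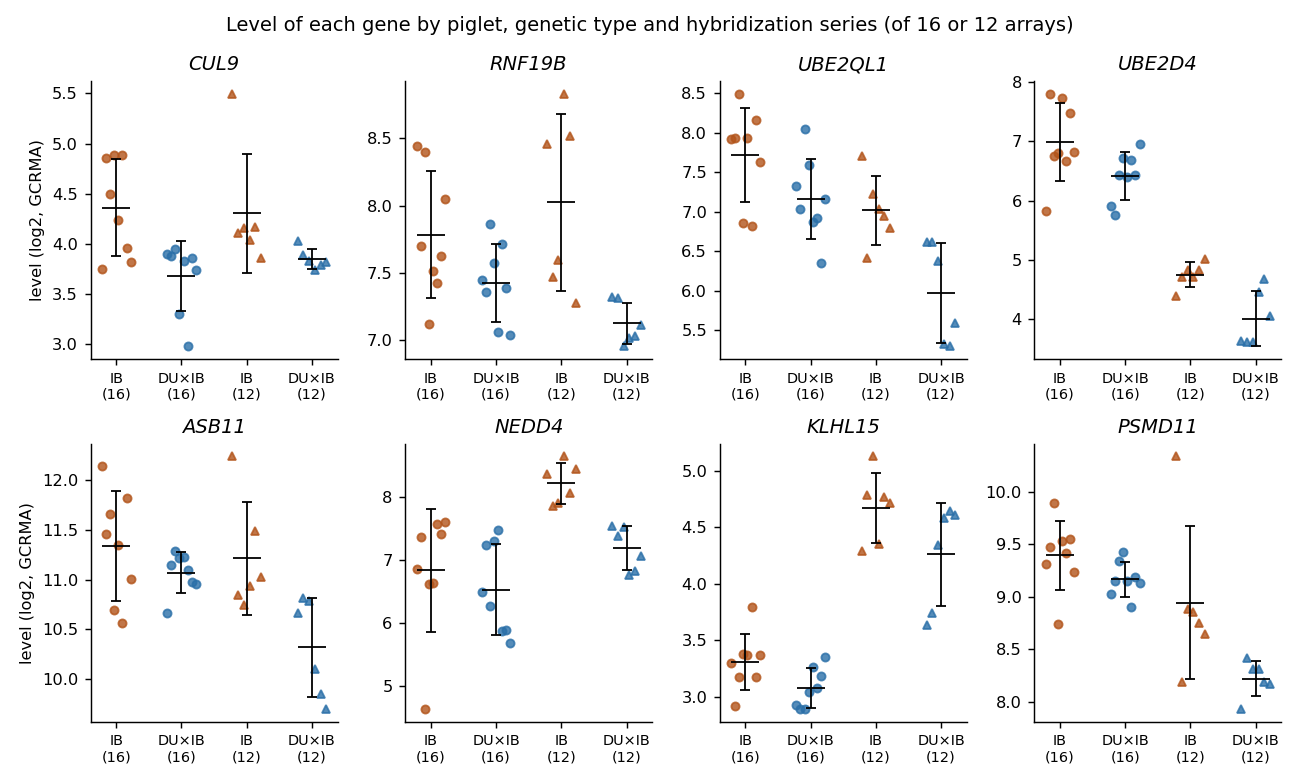
Level of the 8 genes on the log2 scale (vertical axis) in each piglet, 1 point a piglet, by genetic type and by hybridization series of 16 (circles) or 12 arrays (triangles). Horizontal strokes are means and bars are SDs of 8 or 6 piglets. UBE2D4 lies lower and NEDD4 and KLHL15 lie higher in the series of 12, and IB piglet 9 is the highest point of CUL9, ASB11 and PSMD11 in IB.

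Of the conjugating enzymes, UBE2QL1, a relative of the UBE2Q family, ran from 6.41 through a median of 7.42 to 8.49 in IB and from 5.29 through 6.74 to 8.04 in DU×IB. The groups overlapped widely: only 2 IB piglets lay above the highest DU×IB piglet, while 5 DU×IB piglets lay below the lowest IB piglet. Its mean was 7.41 ± 0.63 (SD, n = 14) in IB and 6.65 ± 0.82 (SD, n = 14) in DU×IB, a difference of -0.77 (SE 0.20), or 1.70-fold, the largest of the 8.

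UBE2D4 belongs to the UBE2D family of conjugating enzymes, which work with many ligases. On the probe set of the study's list it ran from 4.39 through 6.25 to 7.81 in IB and from 3.61 through 5.84 to 6.95 in DU×IB. The series differed more than the genetic types did. Within the series of 16 the means were 6.98 in IB and 6.41 in DU×IB, and within the series of 12 they were 4.75 and 4.01. The difference between genetic types over both series was -0.64 (SE 0.18). The other 2 probe sets of the gene had differences of -0.41 (SE 0.16) and -0.14 (SE 0.14), at higher mean levels, so the size of the difference depends on the probe set. The 3 probe sets followed each other from piglet to piglet, with r from 0.747 to 0.922 after centring within genetic type and series (n = 28, permutation test, adjusted p over these 3 pairs at most 0.00015, Spearman rho from 0.557 to 0.849).

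CUL9 is an atypical cullin that also carries a RING-between-RING domain. It was dim, at percentile 8.19 of all probe sets by mean level. Levels ran from 3.75 through 4.16 to 5.50 in IB and from 2.98 through 3.83 to 4.03 in DU×IB. All 14 DU×IB piglets were below the IB median and 10 of 14 IB piglets were above the highest DU×IB piglet, although the ranges overlap. The means were 4.34 ± 0.51 and 3.75 ± 0.28 (SD, n = 14 each), with a difference of -0.58 (SE 0.16). It is the only one of the 8 genes whose difference was larger in the series of 16 (-0.68) than in the series of 12 (-0.45).

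RNF19B is a RING-between-RING ligase of membranes, studied mostly in natural killer cells and macrophages. It ran from 7.12 through 7.66 to 8.83 in IB and from 6.95 through 7.31 to 7.86 in DU×IB, so that the DU×IB piglets sat in a narrow band, with 6 of 14 below the lowest IB piglet. The means were 7.89 ± 0.55 and 7.30 ± 0.28 (SD, n = 14 each), with a difference of -0.59 (SE 0.17). In the series of 12, where the difference was -0.90, only the lowest IB piglet (7.27) came within the DU×IB range of 6.95 to 7.32.

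NEDD4, a HECT ligase that acts on membrane receptors and channels, ran from 4.64 through 7.58 to 8.63 in IB and from 5.68 through 6.95 to 7.54 in DU×IB. All 14 DU×IB piglets were below the IB median, but the lowest of the 28 values was that of an IB piglet, number 3. Over both series the difference was -0.61 (SE 0.25). In the series of 12 the groups did not overlap (7.84 to 8.63 in IB against 6.76 to 7.54 in DU×IB) and in the series of 16 they did, with differences of -1.02 and -0.31.

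ASB11 and KLHL15 are substrate adaptors of cullin ligases. ASB11, an ankyrin-repeat protein of the SOCS box family that is made mainly in skeletal muscle, was the brightest of the 8 genes (percentile 96.7). It ran from 10.56 through 11.19 to 12.24 in IB and from 9.70 through 10.88 to 11.29 in DU×IB. The difference was -0.54 (SE 0.18), with 7 of 14 IB piglets above every DU×IB piglet. KLHL15, a Kelch adaptor of CUL3 ligases, was the dimmest (percentile 5.38) and had the smallest difference, -0.31 (SE 0.13). Its levels ran from 2.92 through 3.59 to 5.13 in IB and from 2.89 through 3.31 to 4.65 in DU×IB, nearly the same span.

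PSMD11 is a non-ATPase subunit of the 19S regulatory particle, which receives marked proteins at the proteasome. It ran from 8.19 through 9.28 to 10.34 in IB and from 7.93 through 8.96 to 9.43 in DU×IB. The difference was -0.44 (SE 0.16). It came to -0.32 without IB piglet 9, whose level of 10.34 was the highest of all.

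The difference was larger in the series of 12 than in the series of 16 for 7 of the 8 genes, and for ASB11, NEDD4, and PSMD11 it was over 3 times as large. No share over all probe sets is set beside this count, so it is not read as a trait of these genes. The test of the difference itself, the interaction of genetic type and series in limma, was not passed by any of the 8 genes, with adjusted p from 0.800 to 0.919 and unadjusted p from 0.0895 for ASB11 upward. Among all 5226 probe sets 0% passed it by limma, where 333 had an unadjusted p under 0.05 (0 of the 8 genes), and array median centring and a second quantile normalization also gave 0. The largest estimates were -0.72 (SE 0.50) for NEDD4 and -0.63 (SE 0.36) for ASB11. These standard errors leave room for interactions as large as the differences themselves.

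**Figure D2:**
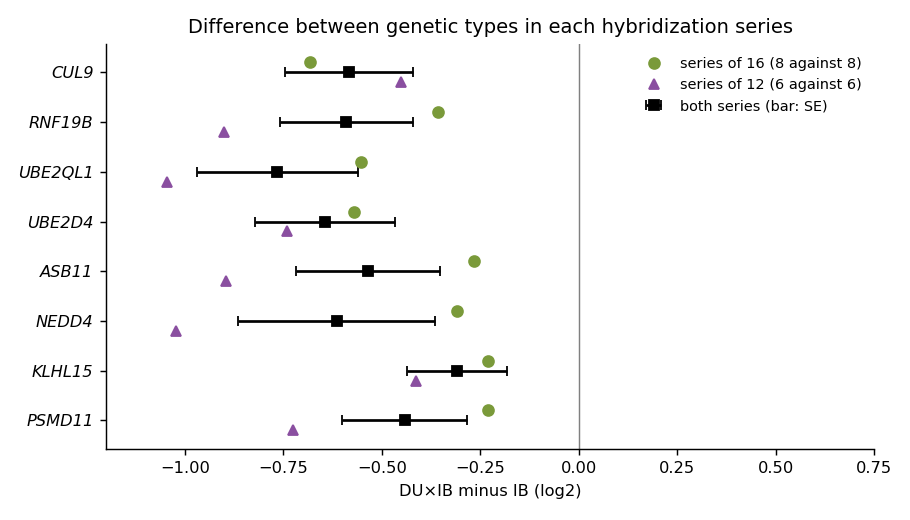
Difference between genetic types (DU×IB minus IB, log2, horizontal axis) for each gene, over both series (squares, with SE) and within the series of 16 (circles) and of 12 arrays (triangles). Every symbol lies left of 0, and for each gene but CUL9 the triangle lies farther left than the circle.

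Between the series 6 of the 8 genes differed (limma, adjusted p under 0.10), where 80.1% of all probe sets were past the threshold. UBE2D4 had a mean of 6.70 over the piglets of the series of 16 and 4.38 over those of the series of 12, a difference of -2.32 (SE 0.18, adjusted p = 8.99e-12). UBE2QL1, PSMD11 and ASB11 differed in the same sense by -0.95, -0.70 and -0.44. KLHL15 was higher in the series of 12 by 1.27 (SE 0.13, adjusted p = 2.07e-09) and NEDD4 by 1.02 (SE 0.25, adjusted p = 0.000691). For these 6 genes the direction held with array median centring and with quantile normalization. The median shift over all probe sets was 0.57 as deposited and 0.09 and 0.15 after these scalings. CUL9 (0.06, adjusted p = 0.760) and RNF19B (-0.03, adjusted p = 0.868) did not pass the test as deposited, but did with both scalings, where CUL9 turned to a lower level in the series of 12 (-0.42 and -0.40) and RNF19B had -0.51 and -0.46. Genetic types are balanced over the series, so the differences between them are the same with and without the series in the model.

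Within genetic type and series, IB piglets were more spread than DU×IB piglets in 6 of the 8 genes. This is also the case for 76.4% of all probe sets, where the median ratio of the SDs was 1.26. The DU×IB piglets share fewer litters, and the part of litters in the spread was not tested. PSMD11 had the largest ratio, with an SD of 0.53 in IB and 0.17 in DU×IB (3.20 times), which came to 1.87 without IB piglet 9. RNF19B followed with 0.56 and 0.24 (2.28 times, and 2.31 without that piglet). UBE2QL1 and KLHL15 had slightly larger SDs in DU×IB, with ratios of 0.948 and 0.857.

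Co-variation was measured on levels centred within the 4 groups formed by genetic type and series, so that neither of them adds to it. Of the 28 pairs of genes, 8 were past an adjusted p of 0.10 over the pairs (two-sided permutation test within the groups, n = 28 piglets, 100000 resamples), 5 with a positive and 3 with a negative correlation. A correlation of at least 0.5 in size was found in 7 of the 28 pairs, and in 14.8% of all pairs of probe sets. UBE2QL1, ASB11, RNF19B and PSMD11 made up the positive pairs, and KLHL15 ran opposite to UBE2QL1, ASB11 and RNF19B. CUL9, UBE2D4 and NEDD4 were in none of the 8 pairs. Over the 8 pairs the permutation p ran from 0.00018 to 0.0196 for r and from 9e-05 to 0.0201 for Spearman's rho.

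**Figure D3:**
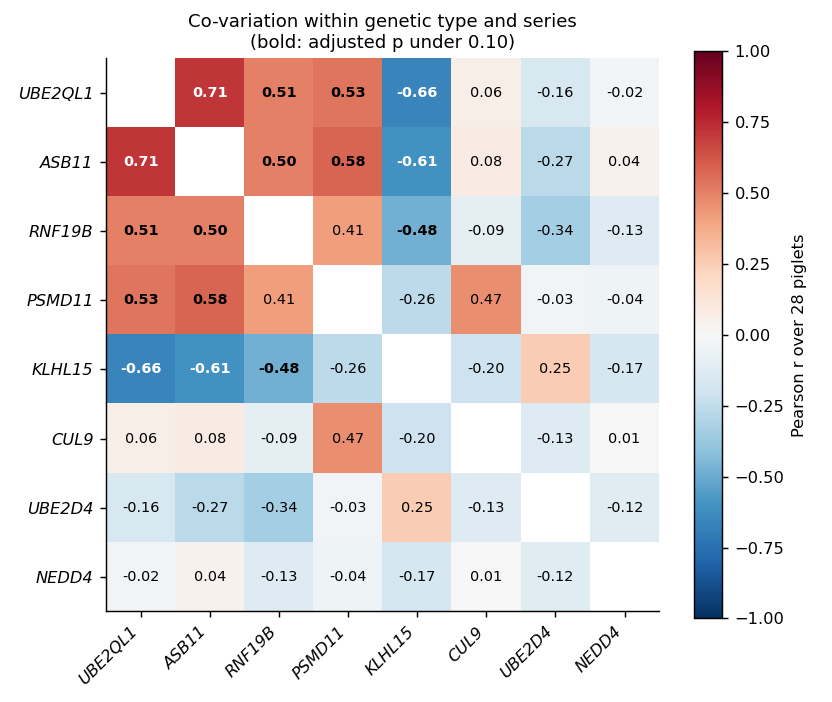
Pearson r of each pair of genes over 28 piglets, after centring within genetic type and series, with red for positive and blue for negative values and bold for pairs with an adjusted p under 0.10. UBE2QL1, ASB11, RNF19B and PSMD11 form a red block, KLHL15 is blue against the first 3 of them, and CUL9, UBE2D4 and NEDD4 have no bold value.

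The tightest pair was UBE2QL1 and ASB11, a conjugating enzyme and a cullin adaptor, with r = 0.715 (permutation p = 0.00018, adjusted p = 0.00504) and rho = 0.736 (permutation p = 0.00012). It was 0.686 without the 2 piglets farthest from the median of UBE2QL1. It was 0.663 within the series of 16 and 0.786 within the series of 12, and 0.780 within IB and 0.672 within DU×IB. UBE2QL1 also rose and fell with PSMD11, with r = 0.534 (adjusted p = 0.00821, rho = 0.517, 0.585 without the 2 farthest piglets), and with RNF19B, with r = 0.507 (adjusted p = 0.0243, rho = 0.468, 0.568 without them). Within the series of 16 and of 12 these were 0.664 and 0.502 for PSMD11, and 0.613 and 0.387 for RNF19B.

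ASB11 and PSMD11 had r = 0.584 (adjusted p = 0.0354, rho = 0.483), with 0.505 and 0.649 within the series. This call rested on IB piglet 9, the highest IB piglet in both genes: without it r was 0.369 (adjusted p = 0.310). RNF19B and ASB11 had r = 0.50 (adjusted p = 0.0685, rho = 0.472), with 0.597 and 0.414 within the series, and lost the call when any of 6 IB piglets (1, 3, 4, 6, 10 or 11) was left out, with r from 0.429 to 0.482.

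KLHL15 fell where UBE2QL1 rose, with r = -0.660 (permutation p = 0.0004, adjusted p = 0.0056, rho = -0.707, -0.607 without the 2 piglets farthest in UBE2QL1). Its r was -0.609 with ASB11 (adjusted p = 0.0204, rho = -0.615) and -0.479 with RNF19B (adjusted p = 0.0293, rho = -0.542). Within the series of 16 and of 12 the values were -0.634 and -0.737 for UBE2QL1, -0.494 and -0.692 for ASB11, and -0.432 and -0.524 for RNF19B. In the series of 16 KLHL15 was near the floor, at 2.89 to 3.80, as the lowest 10% of all values lie under 4.00. These 3 negative correlations were smaller in size when the arrays were scaled again. With each array centred on its median they were -0.321, -0.407 and -0.20, with adjusted p of 0.30, 0.146 and 0.60, while the 5 positive pairs kept their calls, with r from 0.622 to 0.792. This centring takes the same number from every gene of an array, which can itself raise r and so make a negative r smaller in size. All 5 positive r were larger with it, so their kept calls are no separate support. After a second quantile normalization the 3 negative correlations were -0.488, -0.536 and -0.362, with adjusted p of 0.0527, 0.0392 and 0.134. Over 8 relations of a gene with the array median, NEDD4 had r = 0.602 and rho = 0.319, KLHL15 r = 0.35 and rho = 0.458, UBE2QL1 r = -0.50 and rho = -0.459, and RNF19B r = -0.377 and rho = -0.307 (permutation test, adjusted p = 0.0828 for each r). Without the 2 farthest piglets these r were 0.154, 0.332, -0.351 and -0.555. The part of the array level in the correlations was not tested further.

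The 6 DU×IB piglets of the series of 12 fell into separate ranges of UBE2QL1, with 6.61, 6.61 and 6.37 in piglets 9, 10 and 11 and 5.32, 5.30 and 5.60 in piglets 12, 13 and 14. ASB11 parted the same piglets, with 10.66, 10.81 and 10.79 against 10.10, 9.85 and 9.70. KLHL15 was lower in the first of these (3.64, 3.74 and 4.35) than in the others (4.58, 4.65 and 4.61). With these 6 piglets left out, an alternative chosen after seeing the data, 5 pairs were past the threshold and the 8 correlations kept their signs. UBE2QL1 had r = 0.652 with ASB11 (adjusted p = 0.0216), 0.651 with PSMD11 (0.00392) and -0.542 with KLHL15 (0.0619), and ASB11 and KLHL15 had -0.543 and an adjusted p of 0.113.

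**Figure D4:**
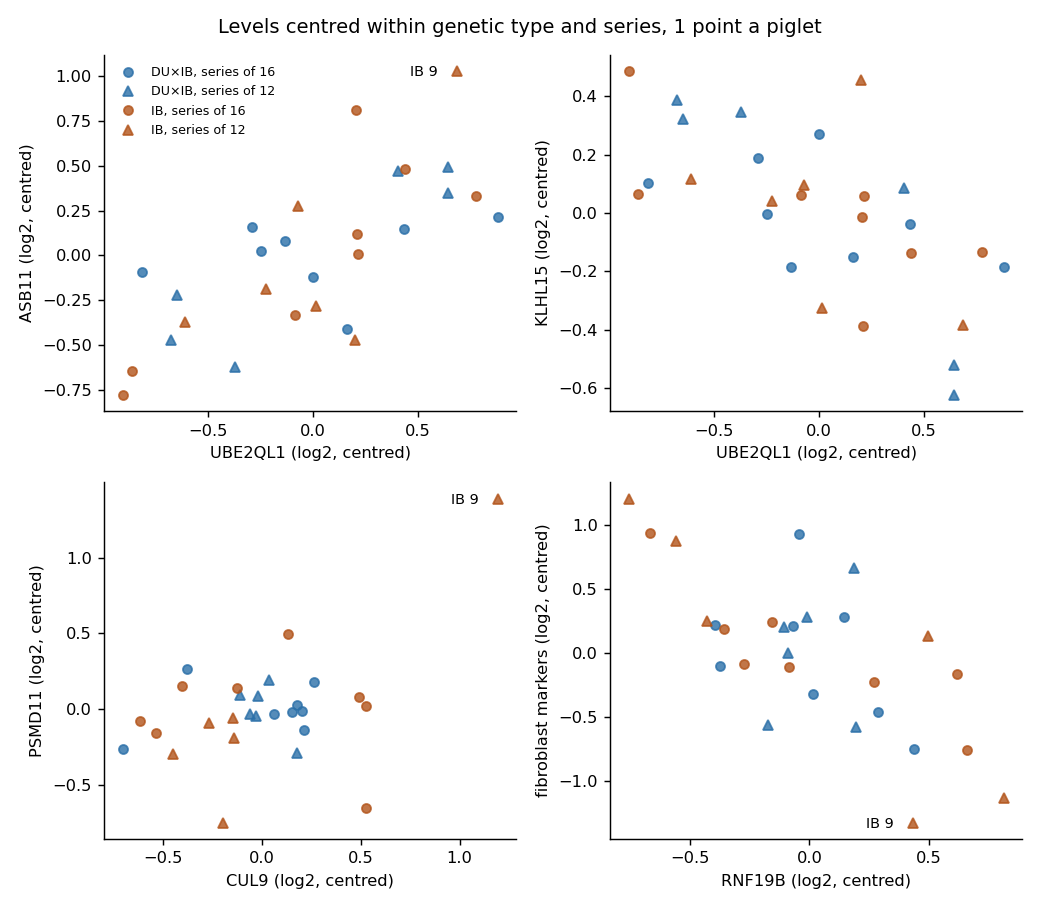
Levels centred within genetic type and series (log2, both axes), 1 point a piglet, for UBE2QL1 with ASB11, UBE2QL1 with KLHL15, CUL9 with PSMD11, and RNF19B with the mean of 7 fibroblast markers. The first pair rises together (r = 0.715) and the second runs opposite (r = -0.660). IB piglet 9 stands alone in CUL9 and PSMD11.

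CUL9 and PSMD11 show how far 1 piglet can carry a correlation. Their r of 0.468 did not pass the test (adjusted p = 0.29), although it did with array median centring (r = 0.564, adjusted p = 0.0967), and without IB piglet 9 it was -0.06, the lowest value of all leave-one-out runs of this pair. NEDD4 had r between -0.17 and 0.04 with the other 7 genes. Its r with KLHL15, -0.17, was -0.525 with array median centring (adjusted p = 0.00747), -0.426 with quantile normalization (0.0465) and -0.428 without the 2 farthest piglets (0.0472), each past the threshold. Of all other probe sets 25.0% had a correlation of at least 0.5 in size with NEDD4, a larger share than for any other of the 8 genes. The part of IB piglet 3, far below the other IB piglets in NEDD4 (4.64), in this share was not tested. For CUL9 that share was 0.995%, the lowest.

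No pair passed the test of a difference in correlation between the genetic types after adjustment over the 28 pairs (two-sided permutation of the genetic type within series, smallest adjusted p = 0.172, 3 pairs at an unadjusted p under 0.05, and 0 pairs past the threshold with ranks or with median centring). The pair nearest to it was UBE2D4 and KLHL15, with r = -0.159 in IB and 0.683 in DU×IB (permutation p = 0.00616). The other 2 were UBE2D4 with UBE2QL1 (0.09 and -0.455) and UBE2D4 with NEDD4 (0.148 and -0.536). UBE2QL1 and PSMD11 had 0.739 in IB and 0.226 in DU×IB (permutation p = 0.0651, adjusted p = 0.382).

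For each gene, the 3 other named genes with the largest correlation over the 28 piglets, in either sense, were taken from the whole table. These are the extremes of the table and have no test. For UBE2QL1 all 3 ran opposite to it, PLAU (-0.809), LZTFL1 (-0.795) and MRPL1 (-0.783), and for ASB11 likewise RRAD (-0.833), KLF5 (-0.810) and ABRA (-0.775). RNF19B had WBP5 (-0.805), NUCB2 (-0.799) and MXI1 (0.775). NEDD4 had the closest followers of all, PAFAH1B1 (0.891), MTF2 (0.845) and ARID1B (0.841). KLHL15 went with DNAJB9 (0.777), CREB5 (0.771) and NR4A3 (0.764). UBE2D4 went with FBL (0.773), ZDHHC16 (0.745) and NPM3 (0.744). PSMD11 went with MAP1LC3B (0.786), MT-2B (0.772) and UBAC1 (0.771), and CUL9 had IKBKG (0.700), HMOX1 (0.640) and RBM4 (-0.637). The values of CUL9 and PSMD11 were lower by rank, as for HMOX1 (rho = 0.384) and MT-2B (rho = 0.457). No member was among the 3 nearest genes of another.

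Markers of other cell types were set beside the 8 genes, as loin RNA is a mixture, in which fewer cells of a type and less RNA per cell cannot be told apart. Of 15 fibroblast markers 7 are in the table. All 7 were higher in DU×IB, 5 past an adjusted p of 0.10 (4 without IB piglet 9), with a median difference of 1.21. Of all probe sets 2.07% were past it on the higher side. These 5 stand in the study's list, which was made on these arrays, so they are no independent evidence. The summed level of the 7 markers ran from 10.57 through 12.33 to 12.95 in IB and from 12.35 through 12.97 to 13.85 in DU×IB (log2), so all 14 DU×IB piglets were above the IB median. RNF19B ran opposite to the mean of these markers within genetic type and series, with r = -0.706 and rho = -0.644 (permutation p = 0.00045, adjusted p = 0.0180 over 40 relations of genes and marker lists). It was -0.611 without the 2 farthest piglets, -0.678 and -0.737 within the series of 16 and of 12, and -0.696 without IB piglet 9. Within IB it was -0.841 and within DU×IB -0.296. UBE2QL1 did so too, with r = -0.525 and rho = -0.465 (permutation p = 0.00269, adjusted p = 0.0399, and -0.496 without the 2 farthest piglets), and it went with the 4 muscle markers, with r = 0.567 and rho = 0.603 (adjusted p = 0.0399, and 0.441 without them). The part of these markers in the lower levels of the 8 genes was not tested.

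No other relation passed the test. RNF19B had r = 0.503 and rho = 0.370 with the macrophage markers (adjusted p = 0.208 over the 40 relations, permutation test), which came to 0.05 without the 2 farthest piglets. Macrophage markers, of which 11 of 19 are in the table, were lower in DU×IB by a median of 0.43 with 0 past the threshold by limma, and their summed level ran from 9.68 to 12.49 in IB and from 9.63 to 10.24 in DU×IB. Muscle markers (13.64 to 15.22 and 14.04 to 15.09), adipocyte markers (4 of 12 in the table, 12.34 to 13.83 and 12.10 to 13.09) and endothelial markers (6 of 13, 10.56 to 12.32 and 10.81 to 12.11) had overlapping ranges in both groups. Of these 3 lists, 1 gene passed the test, the adipocyte gene RBP7, which was higher in DU×IB by 1.58 (limma adjusted p = 0.0202). Of the other adipocyte genes, FABP4 had a difference of 0.37, and CFD and PNPLA2 had -0.44 and -0.43. The ranges of the blood markers (2 of 7) and of the 1 nerve marker overlapped too, and no lymphocyte marker of 12 was found among the named genes of the table.

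The other pathway genes that could be named in the table, which holds only part of the pathway, did not lie to 1 side. The 73 other named genes described here, grouped by role from their symbols, had a median difference of -0.02, with 42 lower and 31 higher in DU×IB. Of all probe sets 47.5% were lower. With limma, 3 were lower and 0 of the 73 were higher in DU×IB at an adjusted p under 0.10, where 0.708% and 2.07% of all probe sets were, and 12 had an unadjusted p under 0.05 in either direction. Without IB piglet 9 the counts past the adjusted threshold were 2 and 0. All 3 that were lower stand in the study's list, which was made on these arrays, so they are no independent evidence. Among the 68 genes outside that list 0 passed it by limma. This was fixed beforehand, as all 145 probe sets past the threshold in the whole table stand in the list. The same holds below for each role without a listed gene. Of the 68 genes, 7 had an unadjusted p under 0.05. Of all probe sets 13.8% did, but this share counts the study's list, which the 68 genes leave out, so the shares are not alike. With the replicate number as a block 1 of the 68 passed the threshold by limma, the U-box ligase UBE4A (-0.55, adjusted p = 0.0766, against 0.141 without the block). The replicate numbers do not pair the piglets, so a call gained or lost with this block is not read as a trait of the gene. UBE4A also passed the threshold without IB piglet 6, together with the ligase MKRN1, and without DU×IB piglet 3.

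**Figure D5:**
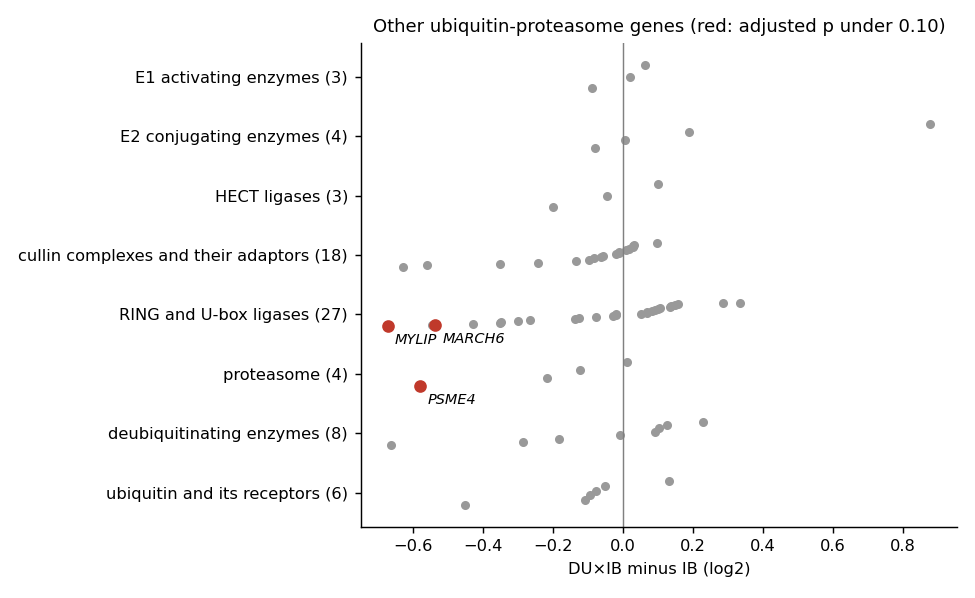
Difference between genetic types (DU×IB minus IB, log2, horizontal axis) of 73 other genes of the pathway, 1 point a gene, by role, with the number of genes in brackets. Red points have an adjusted p under 0.10 and are MYLIP, MARCH6 and PSME4, all on the left.

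The 3 activating enzymes described here did not pass the test. ATG7, the activating enzyme of autophagy, had a difference of -0.09 (SE 0.16), and UBA3, the catalytic subunit that activates NEDD8, had 0.06 (SE 0.16). None of 4 conjugating enzymes passed the test. UBE2C, which serves the anaphase-promoting complex, had 0.88 (SE 0.42, adjusted p = 0.340) and UBE2M, which carries NEDD8, 0.19 (SE 0.13). The 3 HECT ligases outside the 8 genes did not pass it either, among them WWP1, a relative of NEDD4, with -0.20 (SE 0.20), and UBE3D with 0.10 (SE 0.18). No other RING-between-RING ligase was found among the named genes of the table.

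Among 18 genes of cullin complexes and their adaptors 0 passed the test by limma, and 2 did so before adjustment, at an unadjusted p under 0.05. They were the F-box protein FBXL4 (-0.56, SE 0.22, adjusted p = 0.230), with -0.02 in the series of 16 and -1.28 in the series of 12, and the CUL4 receptor DCAF8 (-0.35, SE 0.16, adjusted p = 0.331). FBXO32, the atrophy ligase atrogin-1, which is named outside the rule for its known role in muscle, had -0.63 with an SE of 0.52. Of 27 RING and U-box ligases 14 had a lower and 13 a higher mean in DU×IB, and 2 were past the threshold, both lower. MARCH6, a ligase of the endoplasmic reticulum membrane, fell from 9.82 ± 0.39 to 9.28 ± 0.34 (SD, n = 14 each, difference -0.54, limma adjusted p = 0.0335). MYLIP, which acts on the LDL receptor, fell from 8.11 ± 0.67 to 7.44 ± 0.41 (difference -0.67, limma adjusted p = 0.0931), and its call was lost when any of 19 piglets was left out, with the block (adjusted p = 0.186), with median centring (0.104) and without the series in the model (0.221).

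PSME4, the proteasome activator PA200, was the only one of 4 proteasome genes past the threshold, going from 8.52 ± 0.83 in IB to 7.94 ± 0.75 in DU×IB (SD, n = 14 each, difference -0.58, limma adjusted p = 0.0614), and the inhibitor PSMF1 had -0.22 (SE 0.16). The call of PSME4 was lost without DU×IB piglet 10 or 12, with the replicate number as a block (adjusted p = 0.108) and without the series in the model (0.586). None of 8 deubiquitinating enzymes passed the test at an adjusted or at an unadjusted level, with USP11 at 0.23 (SE 0.14) and CYLD at -0.29 (SE 0.24). Of 6 genes of ubiquitin and its receptors 0 passed it, with NUB1, which binds NEDD8, at -0.45 (SE 0.15, adjusted p = 0.135, and past the threshold without IB piglet 2, 5 or 10) and UBXN6 at 0.13 (SE 0.15).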

How the data were processed

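Loin RNA of 28 male piglets, 14 IB and 14 DU×IB, was hybridized to 1 porcine array a piglet. Scans were read with GCOS, and the authors summarized them by GCRMA in BRB-Array Tools, which gives the deposited values on the log2 scale. They kept a probe set where over 20% of its values lay 1.5-fold or more from its median, and all 5226 met this when checked.

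Members were found by symbol, in the study's list or else in the annotation of the array. Names came from the study's list for 271 probe sets, from its table of transcription factors for 301 and from the annotation for 2073, and 2581 have none. The members, gene lists and tests were chosen with earlier results of these data known. The hybridization series was taken from 10 spike-in probe sets, since the labels do not give it. Genetic type, series and their interaction were fitted with limma 3.58.1 in R 4.3.3 (lmFit and eBayes, two-sided, Benjamini-Hochberg over 5226 probe sets, threshold 0.10), after a check on simulated data. The study's methods fit a Bayesian model of genetic type and hybridization series with an effect of each array besides, and the authors' own ratios and posterior probabilities were not used. Correlations used levels centred within genetic type and series, with 100000 permutations within these 4 groups (Python 3.11.15, numpy 2.4.6). The genes named are the 8 members, the 3 nearest genes of each, and in each role the 2 of lowest p, with FBXO32, UBE4A and MKRN1 added after their values were seen. Each of the 3 nearest genes was represented by its probe set with the largest r in size. Any other gene with several probe sets was represented by the one in the study's list, else the one of highest mean. Alternatives were other scalings, no series term, the replicate block, a dim-signal filter (mean under 4), a trended prior, a threshold of 0.05, ranks, subsets of piglets and leaving out each piglet. Of the pathway genes in the table, 1 is not reported here.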

Additional observations from a re-analysis of the deposited data

Results flagged for a closer look

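Within each genetic type and series, a piglet was singled out where its gap to the nearest other piglet exceeded the 95% critical share of the range (Dixon). Of 32 groups, 4 for each of the 8 genes, 3 were past it, and chance gives about 1 in 20. IB piglet 9 stood above the other 5 IB piglets of the series of 12 in CUL9, at 5.50 against a next value of 4.16, and in PSMD11, at 10.34 against 8.89. The same piglet was the highest of 14 IB piglets in 3 of the 8 genes, and it had the lowest summed level of fibroblast markers (10.57). IB piglet 3 stood below the other 7 IB piglets of the series of 16 in NEDD4, at 4.64 against 6.61. Without it the difference of NEDD4 was -0.80, and without IB piglet 9 the differences of CUL9 and PSMD11 were -0.49 and -0.32.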

How the results depend on the processing

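The differences of the 8 genes kept their sign under every alternative and with each piglet left out, and another probe set of UBE2D4 gave -0.14 in place of -0.64. Leaving out 1 piglet gave -0.63 to -0.49 for CUL9, -0.65 to -0.51 for RNF19B, -0.84 to -0.70 for UBE2QL1, -0.74 to -0.58 for UBE2D4, -0.61 to -0.44 for ASB11, -0.80 to -0.56 for NEDD4, -0.34 to -0.25 for KLHL15 and -0.50 to -0.32 for PSMD11. Probe sets past the threshold numbered 145 with the series in the model, 52 without it and 80 at a threshold of 0.05, and 103 to 221 with 1 piglet left out, the most without IB piglet 4. Median centring gave 122, of which 66.4% were higher in DU×IB, against 74.5%. With the replicate number as a block there were also 145. The numbers do not pair the piglets, as same-numbered piglets correlated from -0.326 to 0.538 after centring, with 2 of 14 pairs over 0.1 and 1 IB piglet closest to its own number. Of pathway genes, 3 were past the threshold (MARCH6, MYLIP and PSME4), 1 at a threshold of 0.05 and 0 without the series. Under the block there were 2, MARCH6 and UBE4A, as MYLIP (adjusted p = 0.186) and PSME4 (0.108) no longer passed.

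Pairs of genes past the threshold numbered 8, and 16 with centring on genetic type only, 2 within IB, 2 within DU×IB, 0 within the series of 16 (permutation test over 16 piglets, smallest unadjusted p = 0.00679), 14 within the series of 12, and 5 without the 6 DU×IB piglets of that series, which was tried after seeing the data. Leaving out 1 piglet gave 7 to 9. Pairs of CUL9, UBE2D4 and NEDD4 were among those past it within the series of 12, though in none of the main 8. The series difference of CUL9 reversed from 0.06 to -0.42 with median centring and -0.40 with quantile normalization, as these scalings lower the series of 12. CUL9 and KLHL15 have dim probe sets, where small differences in background weigh most.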
